A study of Mus musculus with 8 samples.

Results

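The genes described here encode the receptors for serotonin, dopamine, noradrenaline and adrenaline, acetylcholine, histamine and the opioid peptides. They were taken by symbol (Htr, Drd, Adra and Adrb, Chrm, Chrn, Hrh and Opr followed by a subtype), which gave 41 of the 17644 genes in the table, and no measured value was used to choose them. Of the 41, 33 were tested and 8 did not pass the filter on low values (at least 1 CPM, the tag count scaled to a common library total, in at least 4 libraries). Expression was measured by CAGE, which counts tags from capped 5′ ends of RNA, in mouse brain tissue lying within 1.0 mm of a cavity that had been aspirated from the motor cortex of male C57BL/6NCrSlc mice aged 11 weeks. The brain was taken straight after the lesion in 4 samples (no delay) and 1 week later in 4 samples. All 8 samples carried the lesion, and tissue from an unlesioned brain was not analysed here. The series concerns the grafting of human neurons made from iPS cells, and its design sets injured tissue at these times side by side. In the text the libraries of each group are called P, Q, R and S, in the alphabetical order of the library tag in their column names, and values in every library are given in that order. The columns do not say which replicate each one is. A letter that occurs in both groups shows a shared tag and pairs nothing. Adra2b, Drd3, Hrh4, Chrm3, Chrm5, Chrna1, Chrna2, Chrna6, Chrna9, Chrna10, Chrnb4, Chrnd, Chrne, Chrng, Htr2b and Htr3b had no row in the table and were not analysed here.

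Serotonin, dopamine, noradrenaline and acetylcholine reach the cortex from small groups of neurons in the brainstem and basal forebrain, whose axons branch widely. Opioid peptides are made by local neurons. Most of the receptors described here act through G proteins: Gs raises cyclic AMP, Gi lowers it, and Gq releases calcium through phospholipase C. The nicotinic receptors and the serotonin receptor that contains Htr3a are ion channels instead. In cortex these receptors sit mainly on pyramidal cells and interneurons and set their excitability, and some are also carried by astrocytes, microglia and vessels.

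Far more of the receptors were lower than higher at 1 week. Of the 33 tested, 13 were lower, 1 was higher and 19 were not called (limma, Benjamini-Hochberg adjusted p under 0.05), where 36.8% of all 14718 genes tested were called, 13.4% as lower and 23.4% as higher. The median log2 fold change of the receptors was -0.27, against 0.06 over all genes tested. A value below 0 was found in 28 of the 33, and in 6139 of all 14718 genes tested. The falls were modest. Apart from Drd2, the mean CPM of the genes called lower fell by 17.2% to 44.8%. In 10 of the 33 every 1-week library lay below every no-delay library (12.0% of all genes tested), and in 1 every 1-week library lay above (22.7%). All 7 tested receptors that couple to Gq had a log2 fold change below 0 and 4 of them were called lower. Of the receptors that couple to Gi, 4 of 14 were called lower, of those that couple to Gs 2 of 7, and of the channel subunits 3 of 5.

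**Figure D1:**
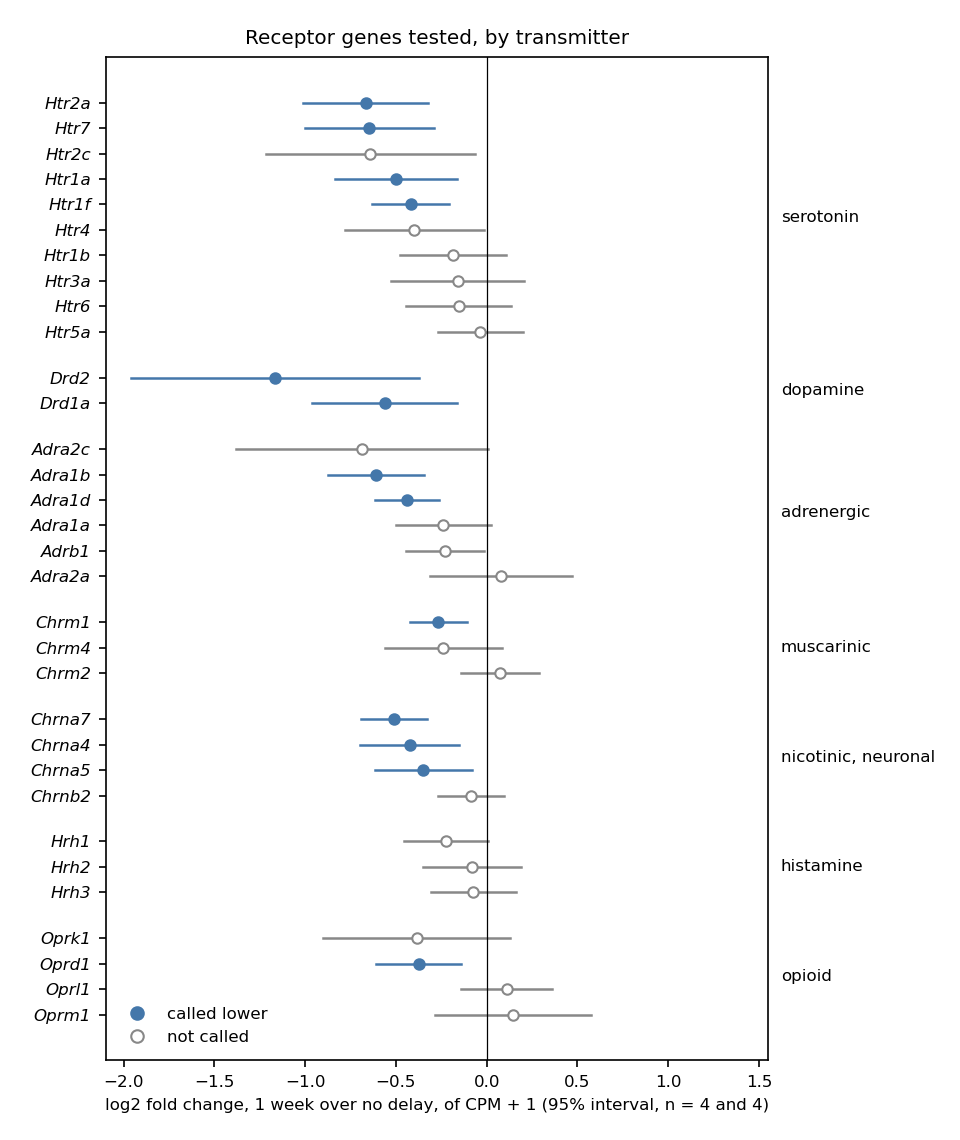
Log2 fold change of CPM + 1, 1 week over no delay, for 32 of the tested receptor genes in order of transmitter, with 95% intervals from limma (4 libraries in each group). Filled points are the 13 genes called lower, which lie to the left of 0 by the definition of that call.

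The libraries held 8278855 to 13998941 reads. In bulk tissue fewer cells of a type and less RNA per cell cannot be told apart, so marker lists are given beside the receptors. The 12 general neuron markers summed to 7617 to 8487 CPM without delay and 6717 to 7378 CPM at 1 week, with a median log2 fold change of -0.20 and 5 of 12 called lower. Sums of the 10 microglia markers were 529 to 539 CPM and 1969 to 2946 CPM, those of the 10 astrocyte markers 2327 to 2629 CPM and 4715 to 5410 CPM, and all 20 of these genes were called higher. The interneuron list (10 genes, 1110 to 1236 CPM and 975 to 1101 CPM) had a median log2 fold change of -0.14, with 1 gene called higher and 1 lower. The cortical excitatory list (10 genes, 4196 to 4625 CPM and 3657 to 4665 CPM) had a median of -0.17, with 1 gene called higher and 3 lower. Most of the cortical excitatory sum was Camk2a, which was not called. In the 10 blood-borne monocyte and macrophage genes the sums were 21.8 to 27.1 CPM and 146 to 363 CPM. Endothelial sums (8 genes) were 172 to 192 CPM and 279 to 328 CPM. Oligodendrocyte sums (8 genes) were 1490 to 3390 CPM and 2357 to 3997 CPM, and meningeal and fibroblast sums (8 genes) 362 to 572 CPM and 254 to 816 CPM. The part of these lists in the receptor results was not tested, except that the fit was repeated with each library scaled to the general neuron list. On that scale 7 receptors remained lower (Adra1b, Adra1d, Chrna7, Drd2, Htr1f, Htr2a and Htr7; 5.65% of all genes tested were lower).

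Serotonin receptors were the largest family, with 12 genes in the table and 10 tested. All 10 had a log2 fold change below 0 with CPM as deposited, though Htr5a turned to 0.11 when scaled to the neuron list, and 4 were called lower. Htr2a and Htr1f were the most abundant. Htr2a encodes the Gq-coupled receptor of cortical pyramidal cells on which psychedelic drugs act. Its no-delay values were 39.1, 34.8, 39.2 and 30.95 CPM and its 1-week values 33.2, 19.7, 18.4 and 20.1 CPM. The 1-week library P lay within the no-delay range and the other 3 lay below it, so the groups overlapped. The log2 fold change was -0.67 (SE 0.16, limma adjusted p = 0.00575), and it was -0.85 without that library (adjusted p = 9.91e-05). Htr2a was not called without the no-delay libraries P and R together, which were highest in striatal markers (-0.54, adjusted p = 0.0729). Htr1f, a Gi-coupled receptor, stood at 33.2, 35.9, 32.7 and 38.3 CPM without delay and at 30.9, 24.6, 25.7 and 23.0 CPM at 1 week. All 1-week libraries lay below all no-delay libraries (log2 fold change -0.42, SE 0.10, limma adjusted p = 0.00536).

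The promoter windows of these 2 genes are shown because they were the most abundant serotonin receptors and both fell. They run from 250 bases before to 50 bases after the start of the gene in RefSeq on GRCm38.p6, another build than the mm9 of the deposited table, and the table does not say where the counted tags began. Htr2a lies at chr14:74640624-74640923, plus strand, and Htr1f at chr16:65105735-65106034, minus strand. Capitals mark GC boxes (GGGCGG on either strand), and the motifs for AP-1 (TGANTCA), CRE (TGACGTCA), STAT (TTCNNNGAA) and the TATA box (TATAAA) were not found in either window.
Htr2a: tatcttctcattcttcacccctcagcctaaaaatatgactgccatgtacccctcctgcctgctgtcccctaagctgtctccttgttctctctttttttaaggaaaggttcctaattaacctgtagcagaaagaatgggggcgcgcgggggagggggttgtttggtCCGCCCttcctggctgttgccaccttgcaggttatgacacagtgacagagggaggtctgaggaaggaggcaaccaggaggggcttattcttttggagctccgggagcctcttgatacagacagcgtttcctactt
Htr1f: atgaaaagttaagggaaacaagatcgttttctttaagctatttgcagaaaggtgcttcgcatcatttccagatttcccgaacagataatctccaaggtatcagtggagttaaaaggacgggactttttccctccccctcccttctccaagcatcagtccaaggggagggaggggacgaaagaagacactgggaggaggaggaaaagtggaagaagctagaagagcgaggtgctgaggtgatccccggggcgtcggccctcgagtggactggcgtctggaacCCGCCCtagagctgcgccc

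Htr7 and Htr1a were less abundant and also fell. Htr7, a Gs-coupled receptor, went from 3.79, 6.4, 4.65 and 3.86 CPM to 2.05, 2.66, 2.93 and 2.69 CPM with no overlap (log2 fold change -0.65, SE 0.16, limma adjusted p = 0.00824). Htr1a, the Gi-coupled receptor that also serves as the autoreceptor of serotonin neurons, went from 8.71, 8.87, 7.62 and 6.67 CPM to 3.87, 6.06, 5.07 and 6.60 CPM. The highest 1-week library was close to the lowest no-delay library. Its log2 fold change was -0.50 (SE 0.15, limma adjusted p = 0.0231), and the call ended on leaving out no-delay library P or Q or the 1-week library P or R (adjusted p from 0.0572 to 0.0656). Htr1a was also not called when scaled to the neuron list or without the no-delay libraries P and R together. Among the serotonin receptors not called, Htr5a (11.3 to 15.5 CPM without delay and 12.6 to 13.9 CPM at 1 week), Htr1b (5.33 to 8.13 and 5.10 to 6.28 CPM), Htr6 (4.66 to 6.45 and 4.23 to 5.37 CPM) and the channel subunit Htr3a (3.47 to 6.56 and 3.62 to 5.07 CPM) had intervals that included 0. Htr4, Gs-coupled, stood at 1.46 to 2.87 CPM and 1.06 to 1.48 CPM (log2 fold change -0.40, limma adjusted p = 0.0958).

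Htr2c, the Gq-coupled receptor that is also very abundant in the choroid plexus, depended on a single library. Without delay it stood at 10.7, 22.8, 8.12 and 7.81 CPM, and at 1 week at 8.94, 5.62, 6.71 and 6.43 CPM. The value of 22.8 CPM came from the no-delay library Q. That library also held 103.9 CPM of Ttr, the transthyretin gene that marks the choroid plexus, while Ttr was at 0 or at most 0.20 CPM in the other 7. Over the 4 choroid plexus markers in the table the sum was 399.6 CPM in that library, 129 to 155 CPM in the other no-delay libraries and 141 to 185 CPM at 1 week. Outside library Q nearly all of that sum was Enpp2, at 128 to 154 CPM without delay and 140 to 184 CPM at 1 week. Kl was highest in the no-delay library R (1.58 CPM, against 1.28 CPM in Q) and Aqp1 in Q (1.01 CPM). The log2 fold change of Htr2c was -0.64 (SE 0.27, limma adjusted p = 0.0787), and it was -0.32 without that library (adjusted p = 0.165). Count tests on the recovered reads of all 8 libraries did call it (adjusted p = 0.0340 with edgeR and 0.00814 with DESeq2). The part of the choroid plexus in this value was not tested beyond leaving the library out.

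Both tested dopamine receptors were called lower, and both varied widely between libraries. Drd1a (now named Drd1), the Gs-coupled receptor of striatal and deep cortical neurons, stood at 20.7, 10.5, 16.5 and 13.9 CPM without delay and at 12.7, 8.13, 10.2 and 8.80 CPM at 1 week (log2 fold change -0.56, SE 0.18, limma adjusted p = 0.0308). Drd2, the Gi-coupled receptor of the other class of striatal projection neurons, stood at 4.30, 0.46, 3.86 and 1.67 CPM and at 1.09, 0.52, 0.07 and 0.16 CPM (log2 fold change -1.17, SE 0.37, limma adjusted p = 0.0249). Both genes were highest in the no-delay libraries P and R and the groups overlapped. The summed striatal list (9 genes in the table) was also highest in these libraries, at 439 and 454 CPM, against 299 and 349 CPM in the other no-delay libraries and 286 to 366 CPM at 1 week. Within that list Penk, Tac1 and Pde10a were called lower, while Ppp1r1b, its most abundant gene, stood at 139.9 CPM ± 32.2 without delay and 139.6 CPM ± 15.0 at 1 week (each SD over n = 4).

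Neither dopamine call was held when those libraries were left out. Without both of them the log2 fold change of Drd1a was -0.27 (adjusted p = 0.291) and Drd2 did not pass the filter. Drd1a was also not called without either of them alone or without 1-week library Q, R or S (adjusted p from 0.0549 to 0.0917). Drd2 passed the filter in exactly 4 libraries, so that it was not tested without no-delay library P, R or S or 1-week library P, and its call ended without the 1-week library R (adjusted p = 0.0711) or S (adjusted p = 0.0549). The part of striatal tissue in these values was not tested otherwise. Drd1a was also not called when scaled to the neuron list (-0.42, adjusted p = 0.0785).

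**Figure D2:**
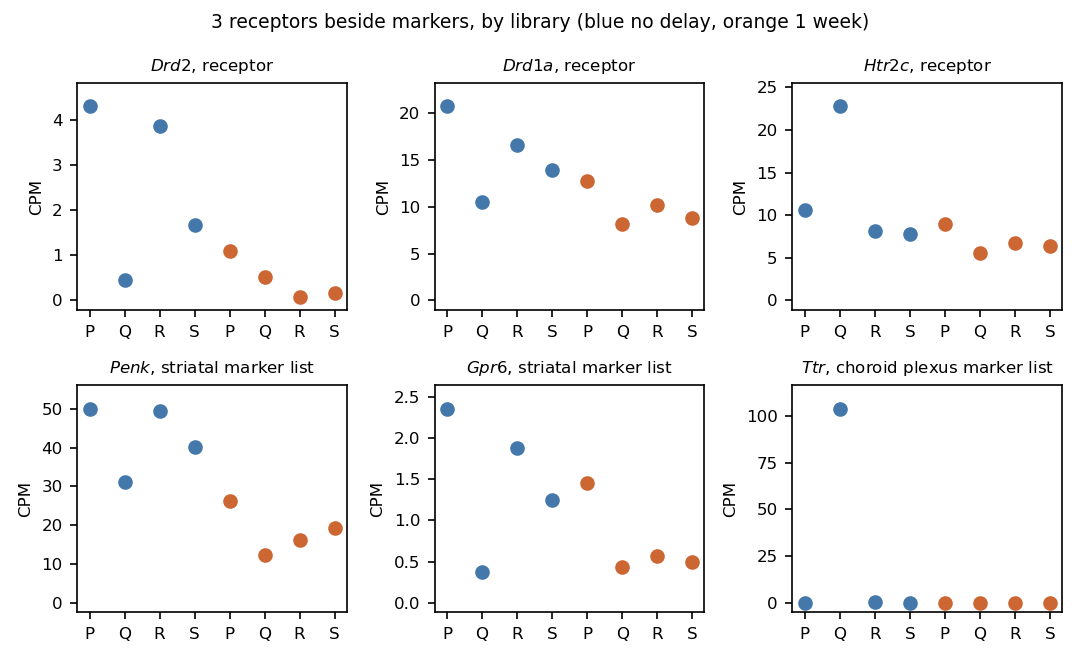
CPM of Drd2, Drd1a and Htr2c (top) and of the markers Penk, Gpr6 and Ttr (bottom) in each library, P to S (blue no delay, orange 1 week). Drd2 and Gpr6 were both lowest among no-delay libraries in Q, which is also the only library with more than 0.20 CPM of Ttr.

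The adrenergic receptors called lower both couple to Gq. Among the Gq-coupled receptors, Adra1d went from 39.0, 44.1, 40.6 and 45.8 CPM to 32.0, 32.8, 27.9 and 31.1 CPM, with no overlap (log2 fold change -0.44, SE 0.08, limma adjusted p = 0.00112). Adra1b went from 25.5, 18.4, 25.2 and 19.2 CPM to 13.8, 15.1, 14.7 and 12.4 CPM, again with no overlap (log2 fold change -0.61, SE 0.12, limma adjusted p = 0.00199). The third gene of this class, Adra1a, stood at 13.7 to 15.8 CPM and 9.53 to 13.7 CPM and was not called (log2 fold change -0.24, 95% interval -0.50 to 0.02). A gene on the other strand within Adra1d, Gm14285, stood at 7.34 CPM and 5.06 CPM, and since the use of strand in counting is not given, reads of the pair may not be separable.

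Adrb1, the Gs-coupled receptor typical of neurons, went from 33.8, 37.2, 33.8 and 41.2 CPM to 29.96, 27.1, 30.8 and 36.2 CPM. It was not called with CPM as deposited (log2 fold change -0.23, SE 0.10, limma adjusted p = 0.0880) and stood at -0.08 when scaled to the neuron list (limma adjusted p = 0.559). Adrb1 was called lower with TMM scaling (limma adjusted p = 0.0467) and with edgeR (adjusted p = 0.0466). It was also called lower with DESeq2, median-of-ratios scaling, quantile normalization and library weights, and without 1-week library S. The Gi-coupled Adra2a (5.21 to 7.62 and 4.43 to 8.96 CPM) and Adra2c (5.43 to 16.5 and 2.59 to 8.09 CPM, log2 fold change -0.69, SE 0.32, limma adjusted p = 0.113) were not called with CPM as deposited. Adra2c was called lower with quantile normalization, with library weights and without no-delay library P.

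**Figure D3:**
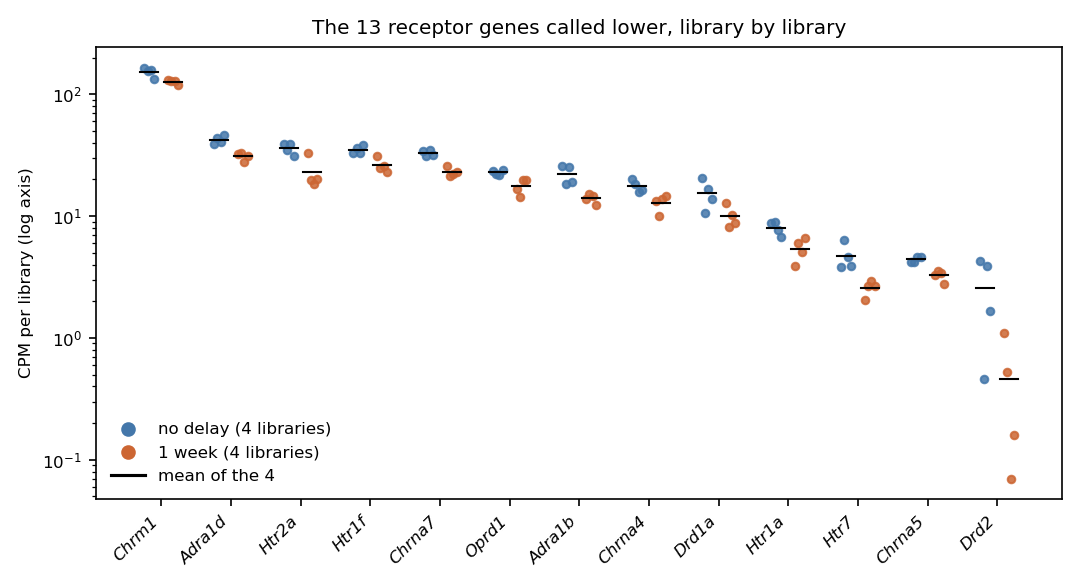
CPM in each library (log axis) of the 13 receptor genes called lower, ordered by their no-delay mean, with bars at the mean of 4 libraries. In Htr2a, Drd1a and Drd2 the groups overlap.

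Of the receptors for acetylcholine, 1 of 3 tested muscarinic genes and 3 of 4 tested nicotinic genes were called lower. Chrm1, the Gq-coupled muscarinic receptor of pyramidal cells, was the most abundant of all 41 genes. CAGE counts 1 tag for each capped end, so CPM can be set side by side between genes without dividing by length. Chrm1 stood at 165, 155, 158 and 133 CPM without delay and at 131, 129, 127 and 119 CPM at 1 week. The groups did not overlap, by a narrow margin (log2 fold change -0.27, SE 0.07, limma adjusted p = 0.0130). Scaled to the neuron list its log2 fold change was -0.12 and it was not called (adjusted p = 0.226), nor was it without the no-delay libraries P and R (-0.18, adjusted p = 0.132). The Gi-coupled Chrm4 (19.0 to 29.5 and 16.3 to 25.4 CPM) and Chrm2 (14.1 to 17.1 and 14.7 to 17.8 CPM) were not called, with log2 fold changes of -0.24 and 0.07. Chrm2 turned to -0.11 with quantile normalization.

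Among the nicotinic channel subunits, 3 of 4 tested were lower. Chrna7, whose product forms channels of its own, went from 34.4, 31.4, 34.8 and 31.7 CPM to 25.6, 21.2, 22 and 22.9 CPM. It had the smallest adjusted p of all receptors (log2 fold change -0.51, SE 0.08, limma adjusted p = 0.000472) and remained called in all 20 alternatives. Chrna4 went from 19.98, 18.3, 15.8 and 16.3 CPM to 13.3, 9.98, 13.8 and 14.6 CPM (log2 fold change -0.43, SE 0.12, limma adjusted p = 0.0182). Its call ended on leaving out no-delay library P or 1-week library Q (adjusted p from 0.0518 to 0.0534). Chrna4 was also not called when scaled to the neuron list or without the no-delay libraries P and R together. Chrna5, an accessory subunit, went from 4.20, 4.21, 4.65 and 4.58 CPM to 3.26, 3.55, 3.43 and 2.77 CPM (log2 fold change -0.35, SE 0.12, limma adjusted p = 0.0416). Its groups did not overlap, but its call was lost whichever 1 of the 8 libraries was left out (adjusted p from 0.0551 to 0.102). Chrnb2, the partner that joins Chrna4 in the main nicotinic receptor of the brain, stood at 23.7, 24.1, 22.9 and 21.98 CPM without delay and at 19.8, 22.5, 23.4 and 21.5 CPM at 1 week. It was not called (log2 fold change -0.09, 95% interval -0.27 to 0.10, limma adjusted p = 0.452) and turned to 0.06 when scaled to the neuron list. Chrnb2 overlaps Adar on the other strand, which stood at 72.1 CPM and 68.6 CPM, so with strand use not given the reads of this pair may not be separable.

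The promoter windows of Chrna7 and Chrnb2 are shown because these were the 2 most abundant nicotinic subunits tested, 1 called lower and 1 not called. That 1 was called and 1 was not is no test of a difference, and their ratio is compared below. They are again from RefSeq on GRCm38.p6, Chrna7 at chr7:63212477-63212776, minus strand, and Chrnb2 at chr3:89764583-89764882, minus strand. Each holds a GC box, in capitals, and none of the other 4 motifs was found.
Chrna7: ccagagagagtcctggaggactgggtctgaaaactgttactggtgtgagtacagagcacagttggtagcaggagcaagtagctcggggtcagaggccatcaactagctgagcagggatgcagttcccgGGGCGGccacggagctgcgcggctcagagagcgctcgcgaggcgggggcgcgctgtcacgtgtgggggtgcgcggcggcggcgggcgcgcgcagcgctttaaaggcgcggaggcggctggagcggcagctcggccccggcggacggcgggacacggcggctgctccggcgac
Chrnb2: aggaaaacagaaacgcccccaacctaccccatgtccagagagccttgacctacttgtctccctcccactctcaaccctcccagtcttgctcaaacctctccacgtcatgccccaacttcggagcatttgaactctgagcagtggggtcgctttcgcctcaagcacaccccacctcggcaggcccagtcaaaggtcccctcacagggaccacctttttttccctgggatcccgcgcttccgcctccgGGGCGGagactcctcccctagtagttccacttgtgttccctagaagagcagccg

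Over all 44 windows that matched 31 of the receptors, 28 (63.6%) held a GC box, against 35.7% of all 32851 windows in the table. The median GC content was 59.7% in the receptor windows and 52.7% in all windows. AP-1, STAT and TATA motifs were each found in 3 receptor windows (6.82%, against 7.81%, 8.30% and 13.6% of all windows), and CRE in 0 (1.79%). Of the 14 windows of receptors called lower, 11 held a GC box. These are counts of letters and show nothing about binding.

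None of the 3 histamine receptors was called by limma with CPM as deposited, by edgeR or by DESeq2, and the 95% intervals of all 3 included 0. Hrh3, the Gi-coupled presynaptic receptor and the second most abundant of all 41 genes, stood at 78.5, 62.6, 55.1 and 77.1 CPM without delay and at 64.1, 60.4, 61.4 and 71.4 CPM at 1 week (log2 fold change -0.07, 95% interval -0.31 to 0.16). The Gq-coupled Hrh1 (12.6 to 15.4 and 10.1 to 12.7 CPM) and the Gs-coupled Hrh2 (8.34 to 12.2 and 8.58 to 10.3 CPM) had log2 fold changes of -0.22 and -0.08. Both were called lower with quantile normalization, and Hrh1 also with median-of-ratios scaling. Hrh2 and Hrh3 turned to 0.06 and 0.08 when scaled to the neuron list.

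Of the 4 opioid receptors, all Gi-coupled, Oprd1 was called lower and the other 3 were not called. The delta opioid receptor gene went from 23.5, 22.3, 21.8 and 24.1 CPM to 16.6, 14.3, 19.7 and 19.6 CPM with no overlap (log2 fold change -0.38, SE 0.11, limma adjusted p = 0.0159). Scaled to the neuron list it was not called (-0.23, adjusted p = 0.115), nor was it without the no-delay libraries P and R (-0.39, adjusted p = 0.0633). The nociceptin receptor gene Oprl1 was about as abundant, at 23.6, 22.3, 22.9 and 16.6 CPM and at 23.4, 25.1, 22.9 and 20.4 CPM, and was not called (log2 fold change 0.11, 95% interval -0.14 to 0.36). Oprl1 turned to -0.0042 with quantile normalization. The mu receptor gene Oprm1 (1.77 to 3.89 and 2.90 to 4.88 CPM) and the kappa receptor gene Oprk1 (2.08 to 4.10 and 1.14 to 3.87 CPM) were sparse, with log2 fold changes of 0.14 (95% interval -0.29 to 0.58) and -0.39 (-0.90 to 0.13). Oprk1 had about the same fold change as Oprd1, from which no difference was tested, and it was called lower without 1-week library P (limma adjusted p = 0.0462) and with quantile normalization. Oprm1 overlaps Ipcef1 on the other strand (70.1 CPM without delay and 56.9 CPM at 1 week), and reads of that pair may not be separable either. 

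The 8 untested receptors had 5 to 79 reads each over all libraries, so only pooled reads are given, with 95% counting intervals on the ratio. Chrnb1, the beta subunit of the muscle-type receptor, had 16 reads without delay and 46 at 1 week (ratio 2.41, interval 1.34 to 4.57). The 1-week libraries held 11, 7, 11 and 17 reads and the no-delay libraries 3, 6, 3 and 4. Of 8 skeletal muscle markers, 2 were in the table, and their sum was at most 0.43 CPM in any library. Drd5, the other Gs-coupled dopamine receptor, had 48 and 31 reads (ratio 0.542, interval 0.334 to 0.870), and Htr1d 11 and 2 reads (ratio 0.153, interval 0.0164 to 0.700). Chrnb3 had 43 and 31 reads (0.606, interval 0.369 to 0.984), and the intervals of Adrb3 (37 and 40 reads), Chrna3 (4 and 3) and Htr5b (2 and 3) included 1. Drd4 had 0 reads without delay, where 3 reads correspond to 0.274 to 0.313 CPM, and 8 reads at 1 week, 6 of them in the library R. The intervals cover counting error only.

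The enzymes and transporters of the same transmitters did not share 1 direction. The counts in this and the other pathway lists stand beside 23.4% of all genes tested called higher and 13.4% called lower. Of 10 tested genes of monoamine synthesis, transport and breakdown, 4 were higher and 1 was lower, with a median log2 fold change of 0.27. Both monoamine oxidase genes rose, Maob from 21.2 CPM ± 2.82 to 31.7 CPM ± 3.03 (log2 fold change 0.56, SD over n = 4) and Maoa from a mean of 11.5 CPM to 16.9 CPM (log2 fold change 0.52). Ddc, the decarboxylase that makes dopamine and serotonin, went from 3.51 to 5.57 CPM (log2 fold change 0.56), and Slc29a4, a low-affinity monoamine transporter, from 6.19 to 3.18 CPM (log2 fold change -0.77). Th, the first enzyme of catecholamine synthesis, was not called, at 0.61 to 1.78 CPM and 0.60 to 1.36 CPM. Of 11 tested genes of acetylcholine handling, 4 were lower and 1 higher. Ache, the acetylcholinesterase gene, went from 36.7 to 28.7 CPM (log2 fold change -0.34) and Lypd1, which binds nicotinic receptors, from 50.1 to 40.4 CPM (log2 fold change -0.29). Rapsn, which anchors nicotinic receptors at the muscle synapse, was the gene called higher, from 0.423 to 1.81 CPM (log2 fold change 0.98). It was under 1 CPM in every no-delay library and passed the filter through the 1-week libraries alone, so it could be tested only in that direction. Maoa and Th, like Pdyn and Pnoc, were named after their values were seen.

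Of 8 tested genes of opioid peptides and their processing, 3 were lower and 0 were called higher by limma (also 0 at an unadjusted p under 0.05), and Penk had the largest change. Penk, the enkephalin precursor whose peptides act on the delta receptor, stood at 50.1, 31.1, 49.5 and 40.1 CPM and at 26.3, 12.4, 16.3 and 19.3 CPM (log2 fold change -1.18, SE 0.20, limma adjusted p = 0.000576). Its groups did not overlap. Penk is on the striatal list and was also highest in the no-delay libraries P and R, and the part of striatal tissue in its values was not tested. Pcsk1, a protease that cuts prohormones, went from 62.0 to 42.8 CPM (log2 fold change -0.53) and its inhibitor Pcsk1n from 992 to 835 CPM (log2 fold change -0.25, limma adjusted p = 0.0498). The precursors of dynorphin and nociceptin, Pdyn (6.77 to 11.1 and 8.14 to 8.70 CPM) and Pnoc (4.38 to 6.24 and 4.47 to 5.57 CPM), were not called.

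Among the genes that carry the receptors' signals inside the cell, calls were made in both directions. Of 22 tested G protein subunits, 7 were higher and 9 were lower. Gnai1, a Gi alpha subunit, went from 201 CPM ± 21.2 to 105 CPM ± 16.6 (log2 fold change -0.94, SD over n = 4), while Gna15, the Gq-class subunit of blood and immune cells, went from 4.49 to 15.7 CPM (log2 fold change 1.61) and Gng5 from 52.2 to 104 CPM (log2 fold change 1.05). Of 22 cyclases, phospholipases C beta and cyclic AMP effectors, 5 were higher and 8 were lower, led by Adcy7 (4.63 to 15.0 CPM, log2 fold change 1.48), Prkar2b (73.4 to 32.3 CPM, log2 fold change -1.16) and Plcb2 (2.36 to 5.48 CPM, log2 fold change 0.96). Adcy7, Plcb2 and Gna15 are known from myeloid cells, whose marker sums are given above, and the part of such cells was not tested. Of 23 receptor kinases, arrestins and RGS proteins, which switch the signal off, 6 were higher and 5 lower, with Rgs10, Rgs16 and Rgs3 at log2 fold changes of 1.01, 0.74 and 0.72. Of 15 phosphodiesterases 2 were higher, Pde3b and Pde3a at 0.71 and 0.65, and 2 lower, Pde10a among them at -0.42, which is 13.3% in each direction and no more than the share of all genes. The shares called higher of the cyclase list, 22.7%, and of the kinase, arrestin and RGS list, 26.1%, were also near that of all genes.

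The receptors for glutamate and GABA, the fast transmitters of the cortex, were taken for comparison. Of their 39 subunit genes, 37 were tested, 17 were lower, 0 were higher and 20 were not called by limma, with a median log2 fold change of -0.18. At an unadjusted p under 0.05, 1 was higher (Gabrb1, named for this count), and edgeR and DESeq2 called 0 higher. Gabra5, an alpha subunit of extrasynaptic GABA receptors, went from 71.1 CPM ± 4.43 to 33.8 CPM ± 1.74 and Grid1 from 45.6 CPM ± 4.72 to 29.4 CPM ± 6.04 (errors are SDs, n = 4). The shares called lower, 39.4% of the monoamine, acetylcholine and opioid receptors and 45.9% of these subunits, were both above the 13.4% of all genes, and no test of the difference between the lists was made.

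**Figure D4:**
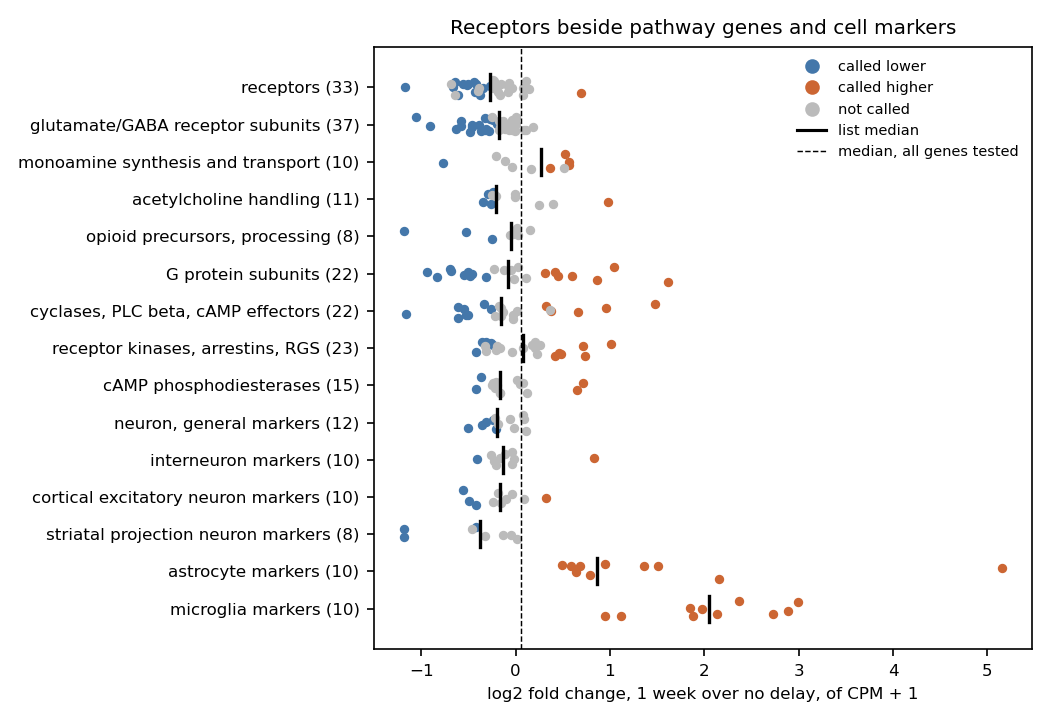
Log2 fold change of CPM + 1 for every tested gene of the receptor set, the pathway lists and 6 marker lists (number of genes in brackets), with list medians as bars and the median of all genes tested, 0.06, as a dashed line. The receptor median is -0.27, and that of the general neuron list -0.20, and all astrocyte and microglia markers lie to the right of the line.

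How far the receptors fell depended on the scale. The deposited CPM gave a median of 0.06 over all genes, TMM scaling gave 0.01, quantile normalization -0.04 and the neuron list 0.20, while the share of all called genes that were higher went from 63.6% to 53.2%, 43.4% and 87.8%. With these scalings 14, 24 and 7 receptors were lower, beside 2585, 3211 and 832 of all 14718 genes tested. The 13 receptors called lower with CPM as deposited were all among the 14 and among the 24.

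**Figure D5:**
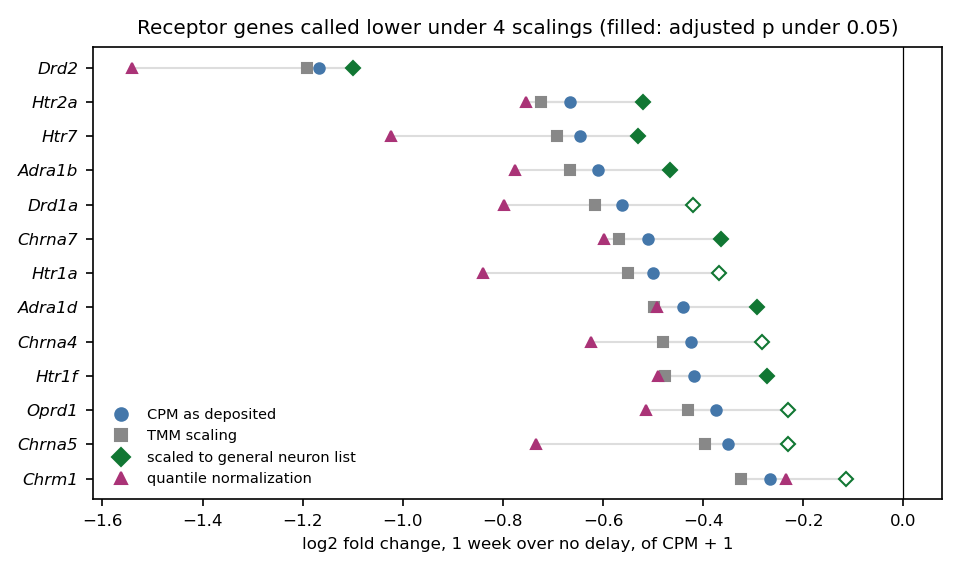
Log2 fold change of CPM + 1 of the 13 receptor genes called lower under 4 scalings (none added, TMM, general neuron list, quantile); filled symbols have adjusted p under 0.05. No gene crosses 0, and 7 of the 13 lower genes keep a filled symbol on the neuron scale.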

How the data were processed

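CAGE libraries from 8 samples were read as 75 nt single ends, per the labels' protocols. The submitters' processing notes name BWA 0.5.9 and, per the same notes, mm9 as the build. How tags were assigned to genes, and whether strand was used, is a step not given in the sources used here. Values are the deposited CPM, scaled by the authors to a common total. Column names show the group and a tag but no replicate number. The 3-base tag differs between the groups in every column, so any effect it marks and the group cannot be told apart. Where nothing says that samples came from separate animals, p-values measure only the spread between them.

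The CPM were whole multiples of 1 read (100% of values within 0.1 reads), from which reads were recovered. On log2(CPM + 1) the 2-sided moderated test of limma 3.58.1, run in R 4.3.3 with its trend option, was fitted on all 14718 genes with at least 1 CPM in 4 libraries and adjusted by Benjamini-Hochberg. Fold changes on this scale understate those of genes with few reads. A gene near 0 without delay passes the filter only if it is high at 1 week. EdgeR 4.0.16 and DESeq2 1.42.0 were run on recovered reads. The procedure was tested on simulated data. Named members are the receptors called, with others by range; from each pathway list up to 3 called genes with the largest change were named, and a few more were chosen after their values were seen. The alternatives were other pseudocounts, low-value filters, scalings, count tests and library weights, each library left out, and a pair of libraries left out. No receptor shared its reads in all libraries with another gene, and 6 of 41 overlap or start near another gene of the table. Promoters are from RefSeq (GRCm38.p6) and matched 31 receptors. Some items, among them 1 called receptor, are not reported here. Members and lists were chosen with earlier results of these data known.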

Additional observations from a re-analysis of the deposited data

Results flagged for a closer look

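In 3 of the 82 sets of 4 libraries (41 receptors in each group), 1 library stood far from the other 3, where chance alone gives about 1 in 20. The no-delay set of Drd4 held no reads in any library and could not be flagged. Htr2a stood at 33.2 CPM in the 1-week library P, against 18.4 to 20.1 CPM in the others. Htr5a stood at 13.9 CPM in the same library, against 12.6 to 12.8 CPM. Adra1a stood at 15.8 CPM in the no-delay library R, against 13.7 to 13.9 CPM.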

How the results depend on the processing

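Of the 14 receptors called, 5 (Adra1b, Adra1d, Chrna7, Htr1f and Htr7) were called in all 20 alternatives and 9 in every omission of 1 library. Leaving out 1 library gave 9 to 12 receptors lower and 1 higher, 25 to 34 pathway genes lower and 23 to 26 higher, and 13 to 17 glutamate and GABA subunits lower and 0 to 1 higher (1 without the 1-week library S). Of all genes tested, 1406 to 2132 were lower in these omissions. The count of receptors lower was 24 with quantile normalization, 7 when scaled to the neuron list and 5 without the 2 no-delay libraries highest in striatal markers. That last alternative was chosen after seeing the data. In it 1330 of all 14586 genes tested were lower, and Htr2a was also not called (limma adjusted p = 0.0729). The count of receptors higher was 2 with a mean CPM filter of 0.3 or no filter, Chrnb1 being added, and 0 with quantile normalization. With no filter 15 receptors were lower, Drd5 and Htr1d being added, beside 1896 of all 17644 genes. Pathway genes lower were 15 on the neuron scale and 19 without those 2 libraries, and glutamate and GABA subunits were 9 lower and 2 higher on the neuron scale. EdgeR gave 15 receptors lower and DESeq2 14, beside 2567 and 2762 of all 14718 genes tested.

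Directions turned only in receptors that were not called: with quantile normalization Adra2a (-0.27), Chrm2 (-0.11), Oprl1 (-0.0042) and Oprm1 (-0.25); on the neuron scale Chrnb2 (0.0605), Hrh2 (0.0558), Hrh3 (0.0769) and Htr5a (0.11); without the 2 libraries Hrh2 (0.0827), Htr3a (0.0979) and Htr5a (0.0941). Over the 8 omissions of 1 library the values ran from -0.0342 to 0.258 for Adra2a (-0.0035 without no-delay library S), from -0.152 to 0.0134 for Hrh2, up to 0.0325 for Htr5a, from -0.0017 to 0.163 for Oprl1 and from -0.0366 to 0.237 for Oprm1. The cause was not tested. No paired analysis was possible because the columns carry no replicate number. The 8 receptors under the filter had 5 to 79 reads each, and those that the wider filters let in rest on these.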

Other observations

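Ratios of 2 receptors within a library were compared for the 2 most abundant tested receptors of each of 7 families and for Chrna4 with Chrnb2, 8 in all, chosen after the values were seen. Chrna7 had 1.30 to 1.52 times the CPM of Chrnb2 without delay and 0.941 to 1.29 times at 1 week, with no overlap (difference in the log2 ratio of CPM + 1 of -0.43, exact 2-sided permutation test over 70 arrangements, p = 0.0286, the smallest that 4 against 4 allows, adjusted p = 0.114). Chrna4 had 0.693 to 0.844 times the CPM of Chrnb2 without delay and 0.443 to 0.678 times at 1 week (difference -0.34, exact permutation p = 0.0286, adjusted p = 0.114). The ratio of Oprl1 to Oprd1 was 0.688 to 1.05 without delay and 1.04 to 1.75 at 1 week (difference 0.48, exact permutation p = 0.0571, adjusted p = 0.152). None of the 8 ratios passed after adjustment, with adjusted p from 0.114 to 0.886, and with 4 against 4 none could have passed unless at least 5 of the 8 had reached the smallest p. Chrnb2, in 2 of the ratios, overlaps Adar, from which its reads may not be separable.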
